A study of Mus musculus with 8 samples.

Results

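Glypicans are heparan sulfate proteoglycans that a lipid anchor holds on the outer face of the cell membrane, from which they can also be released. Their heparan sulfate chains bind growth factors, morphogens and synaptic receptors, and the affinity of a chain depends on where it carries sulfate groups. Heparan 6-O-sulfotransferases, which act in the Golgi, add one of these groups, and in the cortex the glypicans Gpc4 and Gpc6 are known as astrocyte-derived signals that promote the formation of excitatory synapses. The genes described here are the 6 mouse glypicans (Gpc1 to Gpc6) and the 3 heparan 6-O-sulfotransferases (Hs6st1 to Hs6st3), taken by gene symbol. These were 9 of the 26711 features of a single-nucleus RNA-seq data set of the mouse primary visual cortex (V1), and all 9 were measured.

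The mice were homozygous for a floxed allele of the glucocorticoid receptor (GR) gene Nr3c1 (GRfl/fl) in all groups and were taken at P21. At birth they received AAV2/5-GfaABC1D with either Cre and EGFP (GR-KO) or an inactive Cre, ΔCre, and EGFP (GR-Con), where GfaABC1D is a promoter that drives expression in astrocytes. Each genotype was reared under a normal light cycle (NR) or in the dark (DR), giving 4 groups of 2 libraries, 1 male and 1 female each. Per the methods, the EGFP was a CAAX-tagged form (membrane-GFP), and sorted nuclei were DRAQ5-positive and GFP-negative. The paper reports vector-derived EGFP RNA in the astrocytes of these data, so this gate did not keep all transduced nuclei out. Their share among the astrocytes was not counted here. Each library is called by its group and sex below.

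The 8 libraries held 102330 nuclei in 20 deposited cell types, from 9517 to 15161 nuclei and from 168632129 to 288774016 unique molecular identifiers (UMIs, counted RNA molecules) each. Depth per nucleus differed between the groups. In male and female, the median UMIs per nucleus were 17759.5 and 15884 in NR GR-Con and 22827.5 and 29223 in NR GR-KO. They were 16968 and 20161 in DR GR-Con and 14928.5 and 14861 in DR GR-KO. The part of depth in the differences between groups was not tested. Of 101098 barcode sequences, 1220 (1.21%) occurred in more than 1 library. Of 52 measured marker genes, 44 were highest in the type they mark; the exceptions included both markers of L6IT, the only measured marker of L5PT and 2 of 3 of L4. Nr3c1 in astrocytes was at 207 to 263 CPM (counts-per-million, UMIs scaled to a common total) in the 4 GR-Con libraries and at 268 to 284 CPM in the 4 GR-KO libraries. These counts cover the whole gene in nuclear RNA and not the deleted part alone, so they do not check the GR-KO label. The NR GR-KO female library stood apart: the 3 L4 markers made up 0.0175% of UMIs in its Sst nuclei, against 0.000827% to 0.00208% in the 7 other libraries. Of these 3 markers Rorb and Rspo1 were not highest in L4, and Rorb was highest in astrocytes (1838 CPM). Their sum does not measure L4 RNA alone.

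UMIs were summed per library and cell type and scaled to a common total to give CPM. The 15 cell types with at least 10 nuclei in each of the 8 libraries were ordered by mean CPM for each gene. Neighbours in that order were compared by an exact two-sided sign-flip permutation test of the 8 within-library differences of log2(CPM + 1). The order came from the same values, so these tests describe the spread between libraries. They are not separate support for the order. Of 126 neighbouring pairs over the 9 genes, 22 differed, each with the same sign in 8 of 8 libraries and each at an adjusted p of 0.0447 in the exact test, since 0.00781 is the smallest p that 8 libraries can give. The other neighbouring pairs did not pass this test, which takes the same sign in 8 of 8 libraries; this does not show that their levels were alike. CPM were not set side by side between genes, because the values are not scaled to gene length.

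**Figure D1:**
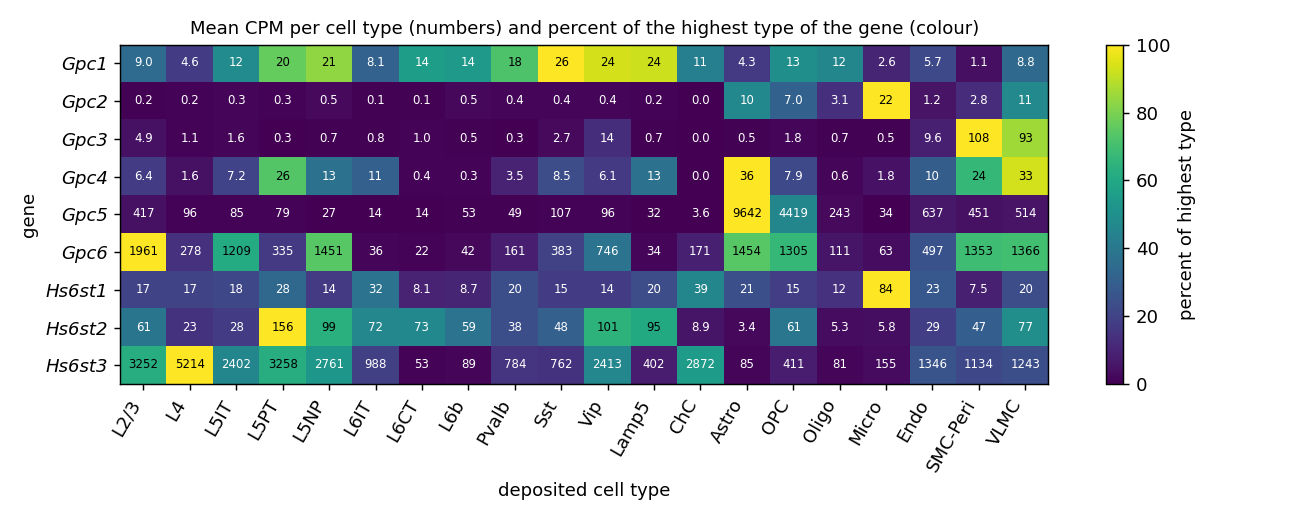
Mean CPM of each gene (rows) in each of the 20 cell types (columns), over the libraries with at least 10 nuclei of the type; colour gives the mean as percent of the highest type of the same gene. Gpc5 was highest in astrocytes (9642 CPM), Gpc6 in L2/3 neurons (1961 CPM) and Hs6st3 in L4 neurons (5214 CPM), while Gpc3 was highest in smooth muscle and pericytes (108 CPM) and vascular leptomeningeal cells (VLMC, 93 CPM).

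Gpc4, the glypican first known for its release by astrocytes, was at 35.5 ± 4.35 CPM (SD, n = 8) in astrocytes, with a range of 29.4 to 43.2 CPM over the libraries. VLMC, at 33.0 ± 23.8 CPM (SD, n = 7), varied from 2.79 to 70.1 CPM and were not among the 15 tested types. Within those, L5PT neurons followed at 26.1 ± 5.82 CPM (SD, n = 8), and Lamp5 interneurons at 13.3 ± 5.66 CPM (SD, n = 8). These 2 steps missed the threshold, with astrocytes above L5PT in 6 of 8 libraries (mean log2 difference 0.45, SD 0.42; adjusted p 0.104 in the exact test) and L5PT above Lamp5 in 7 of 8 (0.96, SD 0.63; adjusted p 0.0844 in the exact test). The level fell in 8 of 8 libraries from Vip (6.09 CPM) to Pvalb (3.45 CPM) and from Pvalb to L4 (1.58 CPM), and L6b was last at 0.347 CPM. Because excitatory neurons are many, they held 69.1% ± 7.2 (SD, n = 8) of the Gpc4 UMIs and astrocytes 18.5% ± 6.61 (SD, n = 8). Thinned to 1000 UMIs per nucleus, 3.93% of VLMC, 3.34% of astrocytes and 2.57% of L5PT nuclei had a Gpc4 UMI, against 0.0263% of L6b nuclei. Without thinning the shares were 15.3%, 16.5%, 40.0% and 0.604%, at median depths of 4362, 6107, 29199 and 25050 UMIs.

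Gpc6, the closest relative of Gpc4 in function at synapses, had its highest level outside astrocytes. It was at 1961 ± 273 CPM (SD, n = 8) in L2/3 neurons and at 1454 ± 175 CPM (SD, n = 8) in astrocytes, and L2/3 exceeded astrocytes in 8 of 8 libraries. The steps from astrocytes to L5NP (1451 CPM), OPCs (1305 CPM) and L5IT (1209 CPM) did not pass the test, and the level then fell to Vip (746 CPM) and Sst (383 CPM). The layer 6 types stood at the other end among excitatory neurons, with 42.2 ± 18.7 CPM (SD, n = 8) in L6b, 35.8 ± 18.2 CPM (SD, n = 8) in L6IT and 21.5 ± 7.51 CPM (SD, n = 8) in L6CT. With 1000 UMIs per nucleus, 71.6% of astrocytes, 71.5% of L2/3 and 68.2% of OPC nuclei had a Gpc6 UMI, against 1.98% of L6CT nuclei. Without thinning these shares were 98.3%, 95.7%, 98.2% and 23.3%.

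Gpc5 had its highest levels in astrocytes and OPCs. Astrocytes had 9642 ± 845 CPM (SD, n = 8), with a range of 8367 to 10786 CPM, and OPCs, the progenitors of oligodendrocytes, had 4419 ± 263 CPM (SD, n = 8). Both steps, from astrocytes to OPCs and from OPCs to L2/3 neurons (417 CPM), were present in 8 of 8 libraries. Astrocytes held 61.4% ± 10.2 (SD, n = 8) of the Gpc5 UMIs although they gave only 3.37% of all UMIs, while the many excitatory neurons held 27.1% ± 11.4 and OPCs 8.42% ± 2.01 (SD, n = 8 each). A Gpc5 UMI was found in 97.1% of astrocyte and 99.3% of OPC nuclei, at median depths of 6107 and 6229 UMIs. The lowest share over the tested types, 15.8% at a median depth of 17934 UMIs, was that of L6CT; thinned to 1000 UMIs per nucleus the 3 shares were 95.6%, 94.5% and 1.27%. In L2/3 nuclei the share was 62.9% at a median depth of 21860 UMIs and 20.7% when thinned. In the other neuron types the level varied widely between libraries, from 125 to 849 CPM in L2/3 and from 24.2 to 207 CPM in L5IT.

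Gpc5, Gpc6 and Hs6st3 lie in this order on the forward strand of chromosome 14 (GRCm38, GENCODE vM21). Gpc5 spans 1.43 Mb (chr14:115092215-116525179), Gpc6 follows after a gap of 400.1 kb with no protein-coding gene in it and spans 1.05 Mb (chr14:116925315-117976544), and Hs6st3 starts 1.16 Mb further on, past 10 protein-coding genes, and spans 0.731 Mb (chr14:119138341-119869815). On chromosome X, Hs6st2 (51387212 to 51681856), Gpc4 (52053021 to 52165252) and Gpc3 (52272426 to 52613950) lie in this order of coordinates on the reverse strand, with 2 protein-coding genes between Hs6st2 and Gpc4 and 0 between Gpc4 and Gpc3. Hs6st1 (36068400 to 36106446) and Gpc1 (92831645 to 92860779) are both on the forward strand of chromosome 1, and Gpc2 (138273655 to 138280005) is on the reverse strand of chromosome 5. Gpc5, Gpc3 and Hs6st3 each overlap 2 other measured features, Gpc1 3 and Hs6st1 1. How the counting used strand is not given in the sources used here, so whether UMIs of overlapping features were kept apart was not checked.

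The promoters of 3 members with different level patterns are shown, from 250 bases before to 50 after the start, read 5′ to 3′ on the strand of the gene (RefSeq, GRCm38.p6). Gpc5 was highest in astrocytes and OPCs, Hs6st3 in L4 and L5PT neurons, and Gpc3 in smooth muscle and pericytes and in VLMC. Capitals mark the letters TATAAA (the core promoter box bound by the general factor TBP), GGGCGG (the box bound by Sp1) and AGAACA (one arm of a glucocorticoid response element) on either strand; these words do not overlap one another here.
Gpc5, chr14:115091965-115092264, forward strand: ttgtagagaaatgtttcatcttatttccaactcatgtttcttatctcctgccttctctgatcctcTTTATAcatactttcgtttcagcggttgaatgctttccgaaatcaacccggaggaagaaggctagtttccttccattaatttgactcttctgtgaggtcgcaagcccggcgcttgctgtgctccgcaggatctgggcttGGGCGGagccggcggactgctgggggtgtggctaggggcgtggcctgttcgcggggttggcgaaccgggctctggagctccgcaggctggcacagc
Hs6st3, chr14:119138015-119138314, forward strand: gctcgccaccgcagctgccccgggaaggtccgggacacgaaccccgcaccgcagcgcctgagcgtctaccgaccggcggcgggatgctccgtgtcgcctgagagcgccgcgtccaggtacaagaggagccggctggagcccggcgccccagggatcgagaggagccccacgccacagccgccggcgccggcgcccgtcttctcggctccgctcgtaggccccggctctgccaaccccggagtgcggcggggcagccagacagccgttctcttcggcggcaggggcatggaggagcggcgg
Gpc3, chrX:52613925-52614224, reverse strand: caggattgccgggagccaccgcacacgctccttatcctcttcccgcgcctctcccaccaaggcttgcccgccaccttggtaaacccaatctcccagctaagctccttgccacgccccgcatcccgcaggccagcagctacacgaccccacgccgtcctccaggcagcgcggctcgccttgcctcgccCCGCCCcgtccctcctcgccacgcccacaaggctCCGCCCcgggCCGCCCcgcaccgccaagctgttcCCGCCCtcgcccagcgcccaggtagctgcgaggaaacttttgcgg
The Gpc5 window held 17 CpG dinucleotides, that of Hs6st3 41 and that of Gpc3 30, against a median of 7 over the 32851 windows of this length. GGGCGG occurred in 35.7% of all windows, 1 time in that of Gpc5, 4 times in that of Gpc3 and not in that of Hs6st3. TATAAA occurred in 13.6% of all windows and, of these 3, in that of Gpc5, on its reverse strand. AGAACA was found in 19.0% of all windows and in none of the windows of the 7 members that had one.

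Gpc3, a glypican that binds Hedgehog and Wnt ligands, was highest in smooth muscle and pericytes (108 ± 56.7 CPM, SD, n = 6) and in VLMC (93 ± 68.6 CPM, SD, n = 7), and endothelial cells had 9.58 ± 7.23 CPM (SD, n = 7). Within the 15 types tested it was highest in Vip interneurons at 14.1 ± 6.76 CPM (SD, n = 8), above L2/3 neurons (4.91 CPM) in 8 of 8 libraries. All other tested types were at 2.71 CPM or lower. A Gpc3 UMI was found in 33.9% of smooth muscle and pericyte nuclei and in 9.02% of Vip nuclei, against 0.569% of L5PT nuclei, at median depths of 2924, 13869 and 29199 UMIs. Thinned to 1000 UMIs per nucleus these shares were 12.7%, 1.55% and 0.0257%.

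Gpc1, a glypican known from adult neurons, had its highest levels in 3 interneuron types, with 25.7 ± 4.69 CPM in Sst, 24.0 ± 1.85 CPM in Vip and 23.8 ± 1.33 CPM in Lamp5 (SD, n = 8 each). Its low end within the 15 tested types was L6IT (8.11 CPM), L4 (4.60 CPM) and astrocytes (4.33 CPM), and L6IT was above L4 in 8 of 8 libraries. Microglia (2.61 CPM, n = 5) and smooth muscle and pericytes (1.09 CPM, n = 6), not among the tested types, were lower. Gpc2, a glypican of immature neurons, was higher in the 3 tested glial types than in the neuron types. It was at 10.5 ± 1.76 CPM in astrocytes, 6.98 ± 1.12 CPM in OPCs and 3.05 ± 0.725 CPM in oligodendrocytes (SD, n = 8 each), and each step down this order, and the next one to L5NP (0.536 CPM), was seen in 8 of 8 libraries. Microglia were higher still, at 22.5 ± 2.93 CPM (SD, n = 5), but had at least 10 nuclei in only 5 libraries. In L6CT, 23 of 12197 nuclei had a Gpc2 UMI.

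The 3 sulfotransferases had different cell types at the top. Hs6st1 was highest in microglia (84.1 ± 9.07 CPM, SD, n = 5), and within the tested types in L6IT (32.1 ± 2.79 CPM, SD, n = 8) and L5PT (28.1 ± 3.35 CPM, SD, n = 8), with L5PT above astrocytes (20.5 CPM) in 8 of 8 libraries. Hs6st2 was highest in L5PT at 156 ± 35.9 CPM (SD, n = 8), followed by Vip (101 CPM), L5NP (99.1 CPM) and Lamp5 (94.8 CPM), and was lowest in oligodendrocytes (5.32 CPM) and astrocytes (3.42 CPM). Hs6st3 was highest in L4 at 5214 ± 564 CPM (SD, n = 8), above L5PT (3258 CPM) in 8 of 8 libraries. It dropped from L5IT (2402 CPM) to L6IT (988 CPM) and was at 52.8 ± 18.2 CPM (SD, n = 8) in L6CT. Vascular types, not among the tested ones, had 1346 ± 438 CPM in endothelial cells (SD, n = 7), 1243 ± 1239 CPM in VLMC (SD, n = 7) and 1134 ± 709 CPM in smooth muscle and pericytes (SD, n = 6), but with nuclei weighted equally 620.4, 569 and 534 CPM, against 951 CPM in L6IT. The 10 neuron markers made up 0.67% to 1.24% of endothelial UMIs over the 8 libraries, beside 1.18% to 1.43% in L6CT neurons; their part was not tested. Excitatory neurons held 95.1% ± 0.756 (SD, n = 8) of the Hs6st3 UMIs. With 1000 UMIs per nucleus a Hs6st3 UMI was expected in 98.4% of L4, 4.85% of L6CT and 7.65% of astrocyte nuclei, against 99.99%, 47.0% and 36.8% as deposited. In Sst the NR GR-KO female library, which stood apart above, had 1285 CPM of Hs6st3 and the 7 other libraries 552 to 881 CPM.

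Likeness to other genes was measured as Pearson's r of log2(mean CPM + 1) over the 20 cell types, which share libraries and depth, among genes reaching 10 CPM in at least 1 type. The closest to Gpc5 were Gm20713 (r = 0.974), which overlaps it on the opposite strand, Emx2os (0.912) and Gabrg1 (0.911). For Gpc3 they were A630012P03Rik (0.957), again an overlapping opposite-strand transcript, Tmem45a (0.908) and Nr1h4 (0.902). Gpc2 was closest to Zfp113 (0.953), Ssbp1 (0.948) and Rgl3 (0.947), and Hs6st3 to Kcnb2 (0.910), Tmem200a (0.894) and Sinhcaf (0.885). Hs6st2 was nearest to 5530401A14Rik (0.892), Zkscan16 (0.887) and Gm11418 (0.885), Gpc1 to Paip2b (0.825), Nudcd1 (0.807) and Sbk1 (0.804), and Hs6st1 to Pi4k2a (0.798), Gm10138 (0.790) and Prkab1 (0.786). The weakest matches were those of Gpc4, with Cby1 (0.779), Fdx1 (0.754) and Lix1l (0.729), and of Gpc6, with Spag16 (0.775), Cyp7b1 (0.763) and Rorb (0.686). Within the 9 members the closest pair was Gpc5 with Gpc6 (r = 0.646).

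To ask what changed with genotype and rearing, summed UMI counts were fitted per cell type with edgeR, with 2 libraries per group, by a likelihood ratio test as in the methods of the study. Calls are at an adjusted p under 0.05 over all features of the cell type, and the counts by the stricter quasi-likelihood F-test and by DESeq2 are given beside them. The background is the percent of all pairs of gene and cell type called in the same comparison. It is given for the likelihood ratio test and the F-test alone. Member counts by DESeq2 or by an unadjusted p have no such share beside them, so they do not show an excess. The members and the gene lists below were chosen with earlier results of these data known. The pairs of a comparison also share the same libraries. A share above the background is therefore a description and not separate support. Not every member passed the filter on low counts in every type: in the NR comparison of genotypes 124 of 153 pairs of member and cell type were tested, with Gpc2 tested in 5 of 17 types and Gpc3 in 6, and Gpc5, Gpc6, Hs6st2 and Hs6st3 in all 17. In what follows a fold change is a log2 fold change with its standard error (SE). Where groups are said not to overlap, the pairs were picked by their calls, which makes separate groups likely. The share of all pairs without overlap was not counted.

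**Figure D2:**
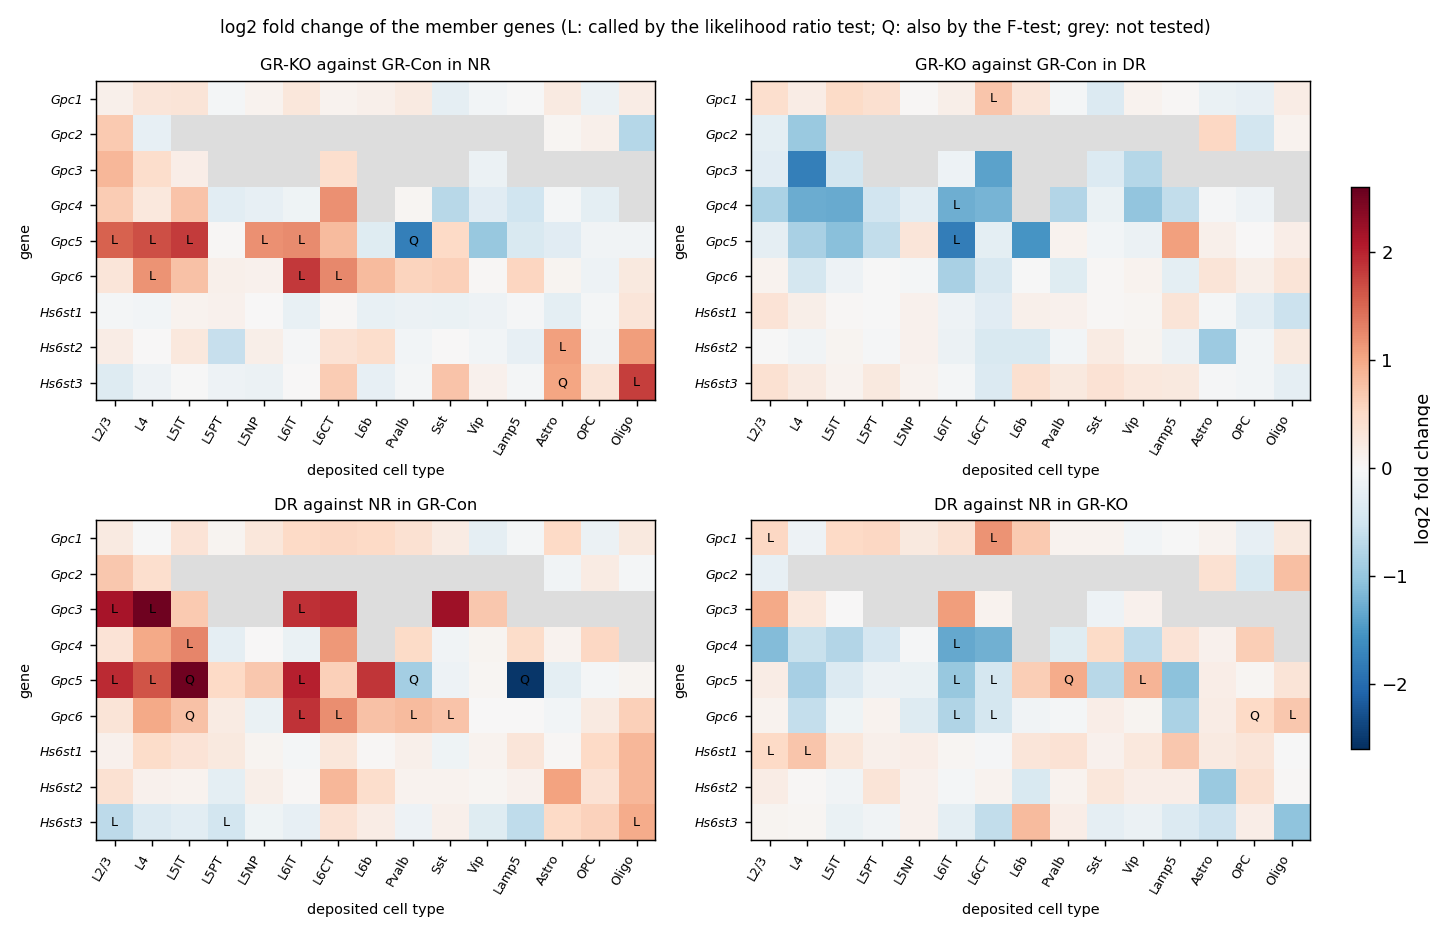
log2 fold changes (colour) of the 9 genes in the 15 cell types tested in all libraries, for the 4 comparisons between groups of 2 libraries; L marks pairs called by the likelihood ratio test alone, Q those also called by the quasi-likelihood F-test, and grey pairs that were not tested. In both left panels Gpc5 was called higher in L2/3, L4, L5IT and L6IT and lower in Pvalb. Both are set against the same NR GR-Con libraries.

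The first question was what Cre in astrocytes changed under normal light. Of the 124 pairs tested, 12 (9.68%) were called, against 0.804% of all 225061 pairs; 11 were higher in GR-KO and 1 lower, where the background was 0.491% higher and 0.313% lower. The quasi-likelihood F-test called 2 pairs, against a background of 0.361%, and DESeq2 called 7 member pairs, 6 of them among the 12. The median log2 fold change over the member pairs was 0.06, while the median over all features lay between -0.007 and 0.009 in each type. In 4 of the 12 pairs the call held whichever library was left out, namely Gpc6 in L6IT and L6CT, Gpc5 in Pvalb and Hs6st3 in astrocytes.

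Gpc5 was called in 6 of 17 types. In L5IT it was at 24.2 and 27.7 CPM in the NR GR-Con male and female and at 117 and 64.5 CPM in the NR GR-KO male and female. Both GR-KO libraries were above both GR-Con libraries (a change of 1.81 on the log2 scale, SE 0.29, adjusted p 4.2e-06), but the quasi-likelihood test did not call it (adjusted p 0.70). The same direction was called in L4 (1.67, SE 0.32), L2/3 (1.53, SE 0.38), L6IT (1.22, SE 0.26) and L5NP (1.19, SE 0.21). In each of these 5 types the call was lost when 1 NR GR-Con library was left out: the male in L5IT and L5NP, and the female in L4, L2/3 and L6IT. The call in L2/3 was kept in 2 of 4 leave-one-out fits. In L5IT the 8 astrocyte markers summed to 0.0716% and 0.0696% of UMIs in NR GR-Con and to 0.0568% and 0.0668% in NR GR-KO. The 3 L4 markers in L5IT, whose sum does not measure L4 RNA alone, were at 0.0788% and 0.0896% in NR GR-Con and at 0.0402% and 0.0716% in NR GR-KO. The 3 L2/3 markers in L5IT, from a type with more Gpc5, went from 0.000424% and 0.000382% in NR GR-Con to 0.000722% and 0.000877% in NR GR-KO; the part of these markers in the result was not tested.

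In Pvalb interneurons Gpc5 went the other way. It was at 94.2 and 68.6 CPM in the NR GR-Con male and female and at 25.7 and 22.3 CPM in the NR GR-KO male and female, so that the groups did not overlap. The log2 fold change was -1.77 (SE 0.18, adjusted p 4.9e-19, and 0.0168 by the quasi-likelihood test), and it stayed between -1.97 and -1.52 when any 1 library was left out. All 8 astrocyte markers were detected in Pvalb nuclei, at a summed 0.0666% and 0.0558% of UMIs in NR GR-Con and 0.0497% and 0.0518% in NR GR-KO. In astrocytes themselves Gpc5 had 10786 and 10565 CPM in NR GR-Con and 8677 and 9499 CPM in NR GR-KO, a difference that was not called.

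Gpc6 was higher in L6IT and L6CT, where it is scarce. In L6IT it was at 14.8 and 12.9 CPM in NR GR-Con and at 55.5 and 44.4 CPM in NR GR-KO (a change of 1.83 on the log2 scale, SE 0.18, adjusted p 2.3e-20, 0.14 by the quasi-likelihood test). In L6CT the values were 12.8 and 10.4 CPM against 28.5 and 27.0 CPM (1.25, SE 0.17, adjusted p 4.4e-09, 0.353 by the quasi-likelihood test). In L6b, where it is scarce too, it was at 21.3 and 33.9 CPM against 77.9 and 18.4 CPM, groups that overlapped, and was not called. Markers of L2/3, the type with the most Gpc6, moved with it. In L6CT the 3 L2/3 markers stood at 0.933% and 0.542% of their L2/3 level in NR GR-Con and at 1.64% and 1.38% in NR GR-KO, while Gpc6 stood at 0.789% and 0.656% of its L2/3 level and then at 1.34% and 1.37%. In L6IT the marker values were 2.14% and 1.70% against 2.86% and 4.38%, and those of Gpc6 0.915% and 0.811% against 2.61% and 2.25%. The part of L2/3 RNA in these differences was not tested. Gpc6 was also called in L4 (1.17, SE 0.29, adjusted p 0.0307), where the call was kept in 1 of 4 leave-one-out fits.

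**Figure D3:**
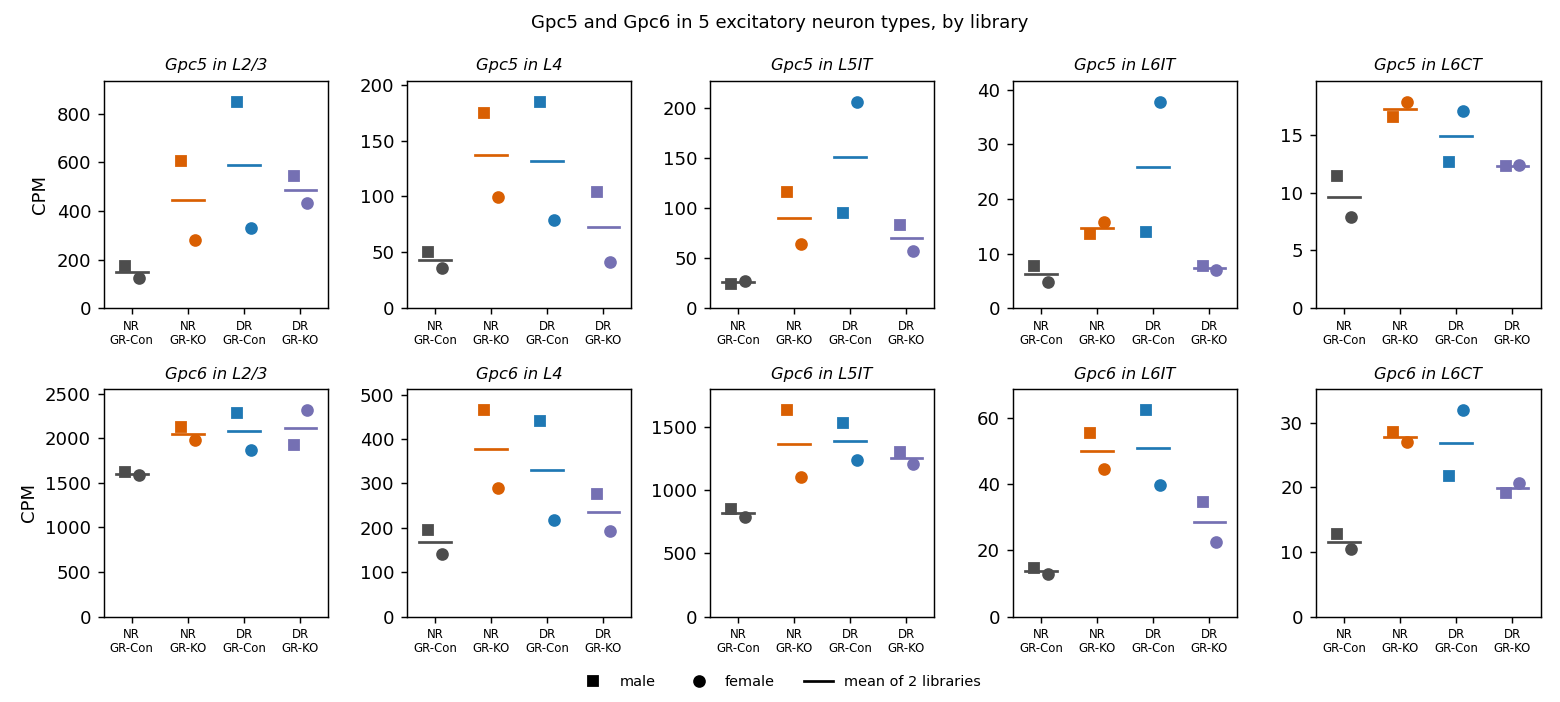
CPM of Gpc5 (upper row) and Gpc6 (lower row) in 5 excitatory neuron types, each point 1 library (squares male, circles female) and each line the mean of 2 libraries of a group, with axes from 0. The 2 NR GR-Con libraries were the lowest of the 8 for Gpc6 in L2/3, L5IT, L6IT and L6CT, at 10.4 and 12.8 CPM in L6CT against 19.2 to 32.0 CPM in the others.

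Hs6st3 rose in astrocytes and, by the likelihood ratio test, in oligodendrocytes. In astrocytes it was at 58.6 and 55.1 CPM in the NR GR-Con male and female and at 97.7 and 144 CPM in the NR GR-KO male and female (a change of 1.03 on the log2 scale, SE 0.21, adjusted p 3.5e-05, 0.0117 by the quasi-likelihood test). There it missed the threshold in a fit of all 8 libraries (adjusted p 0.0546 by the likelihood ratio test). In oligodendrocytes it was at 40.2 and 37.9 CPM against 79.0 and 201 CPM (1.79, SE 0.37, adjusted p 0.000324, DESeq2 0.28, quasi-likelihood test 0.15), and the call was lost without the NR GR-Con male (adjusted p 0.0537). In OPCs, at 296 and 339 CPM against 397 and 424 CPM, it was not called (0.34, SE 0.15, adjusted p 0.645). Neuron markers were higher in the same libraries of astrocytes and oligodendrocytes. The 10 neuron markers, all detected, summed to 0.0920% and 0.0792% of astrocyte UMIs in NR GR-Con and to 0.143% and 0.159% in NR GR-KO, and to 0.0501% and 0.0459% against 0.0921% and 0.132% of oligodendrocyte UMIs. Their part in the result was not tested. Hs6st2 in astrocytes, at 2.19 and 2.09 CPM against 5.1 and 4.4 CPM, was called too (1.07, SE 0.33, adjusted p 0.0221), and no leave-one-out fit kept that call.

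**Figure D4:**
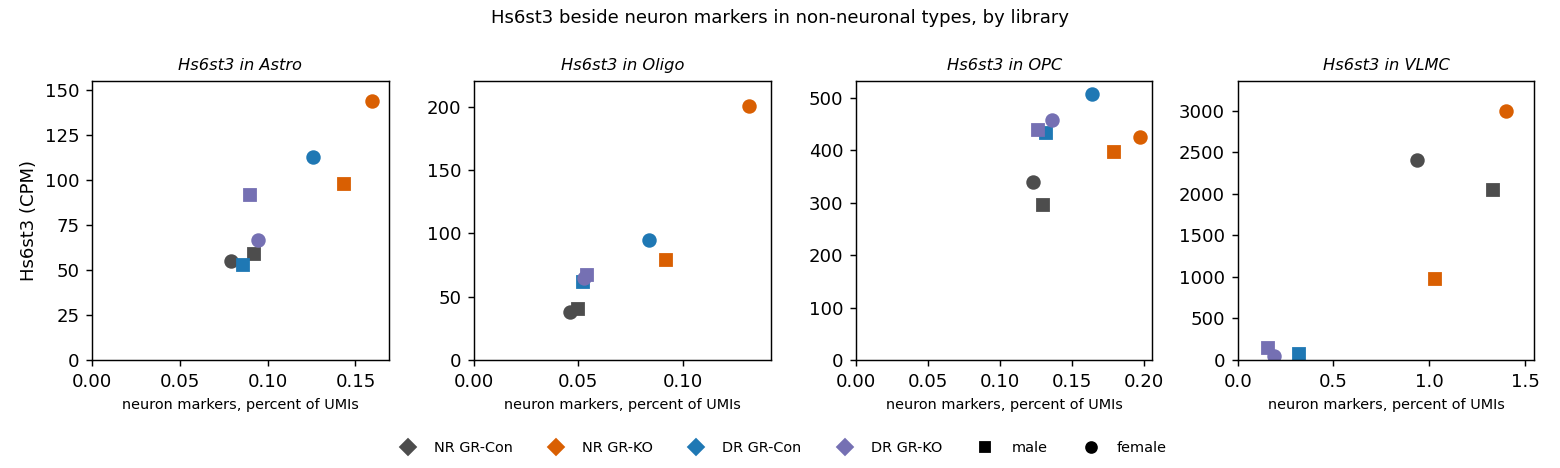
Hs6st3 in CPM (vertical) against the share of UMIs from 10 neuron markers (horizontal, percent) in astrocytes, oligodendrocytes, OPCs and VLMC; each point is 1 library with at least 10 nuclei of the type (squares male, circles female, colour the group), and axes start at 0. In oligodendrocytes the NR GR-KO female was highest on both axes, at 201 CPM and 0.132%.

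The same genotypes were compared in DR. There 3 of 115 member pairs (2.61%) were called, against 0.513% of all 208905 pairs; 1 was higher and 2 were lower, over a background of 0.319% and 0.194%. The quasi-likelihood F-test called 0 of the member pairs and 0.00431% of all pairs, DESeq2 called 3 member pairs, 2 of them among these 3, and 25 member pairs had an unadjusted p under 0.05 in the likelihood ratio test. Gpc1 in L6CT was at 12.9 and 15.1 CPM in the DR GR-Con male and female and at 24.8 and 21.5 CPM in the DR GR-KO male and female (a change of 0.73 on the log2 scale, SE 0.18, adjusted p 0.00948). Gpc4 in L6IT was at 14.3 and 9.93 CPM against 5.38 and 4.71 CPM (-1.26, SE 0.29, adjusted p 0.00994). Gpc5 in L6IT, at 14.0 and 37.8 CPM against 7.77 and 6.95 CPM, had a log2 fold change of -1.79 (SE 0.44, adjusted p 0.0228). The groups did not overlap in these 3 cases. Each of these 3 calls was kept in 2 of 4 leave-one-out fits. The fits without the DR GR-KO male were among those that lost Gpc1 in L6CT and Gpc5 in L6IT. For Gpc4 in L6IT the fit without the DR GR-KO female was among them. Over the 4 fits the log2 fold change was 0.65 to 0.81 for Gpc1, -2.31 to -0.97 for Gpc5 and -1.545 to -0.92 for Gpc4.

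DR was then compared with NR within GR-Con, the effect of dark rearing with GR intact. Of 115 member pairs 18 (15.7%) were called, against 2.25% of all 212346 pairs; 14 were higher in DR and 4 lower, over a background of 1.41% higher and 0.84% lower. The quasi-likelihood F-test called 4 of them, against 0.495% of all pairs, and DESeq2 called 14 member pairs, 12 of them among the 18. This comparison shares the NR GR-Con libraries with the NR comparison of genotypes above, so the likeness of the 2 sets of calls is not independent.

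Gpc5 was called in 6 of 15 types. In L5IT it was at 24.2 and 27.7 CPM in the NR GR-Con male and female and at 95.7 and 207 CPM in the DR GR-Con male and female (a change of 2.53 on the log2 scale, SE 0.33, adjusted p 3.0e-12, 0.00836 by the quasi-likelihood test). In Lamp5 interneurons it fell, from 43.2 and 71.7 CPM to 6.82 and 12 CPM (-2.54, SE 0.30, adjusted p 3.1e-13, 0.00499 by the quasi-likelihood test). It also fell in Pvalb, from 94.2 and 68.6 CPM to 45.0 and 43.2 CPM (-0.89, SE 0.17, adjusted p 5.28e-05, 0.0458 by the quasi-likelihood test). The groups did not overlap in any of these 3 types, and the 3 calls held whichever library was left out. Astrocyte markers in Lamp5 nuclei summed to 0.0344% and 0.0318% of UMIs in NR GR-Con and to 0.0349% and 0.0353% in DR GR-Con. In Pvalb nuclei they summed to 0.0666% and 0.0558% in NR GR-Con and to 0.0515% and 0.0454% in DR GR-Con; their part in the lower Gpc5 there was not tested. In L2/3 Gpc5 was at 174 and 125 CPM against 849 and 329 CPM (1.94, SE 0.47, adjusted p 0.00108), and calls in the same direction in L4 (1.63, SE 0.42) and L6IT (2.01, SE 0.48) were, like that in L2/3, lost without the NR GR-Con female (adjusted p 0.115 in L2/3, 0.304 in L4 and 0.394 in L6IT).

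Gpc6 was called higher in DR in 5 types. The one that the quasi-likelihood test also called was L5IT, at 851 and 787 CPM in NR GR-Con and 1537 and 1239 CPM in DR GR-Con (a change of 0.76 on the log2 scale, SE 0.17, adjusted p 0.000537, 0.0271 by the quasi-likelihood test). The L4 markers in L5IT, whose sum does not measure L4 RNA alone, were at 0.0316% and 0.0430% of UMIs in DR GR-Con, below both NR GR-Con libraries (0.0788% and 0.0896%). The L2/3 markers in L5IT were higher in DR GR-Con, at 0.000927% and 0.0012% of UMIs, than in NR GR-Con, at 0.000424% and 0.000382%. The part of these markers in the differences of Gpc5 and Gpc6 was not tested. L6IT (1.87, SE 0.29), L6CT (1.21, SE 0.24), Pvalb (0.82, SE 0.19) and Sst (0.75, SE 0.18) were called by the likelihood ratio test. Without the NR GR-Con female, Gpc6 in L6IT kept its call, while the calls in L5IT, L6CT and Pvalb were lost. In Sst the call was kept in 1 of 4 leave-one-out fits. The L2/3 markers in L6IT stood at 2.14% and 1.70% of their L2/3 level in NR GR-Con and at 2.57% and 3.24% in DR GR-Con, and in L6CT at 0.933% and 0.542% and then at 0.754% and 1.35%. As a share of all UMIs they were at 0.0152% and 0.0166% in NR GR-Con and 0.0193% and 0.0207% in DR GR-Con in Pvalb, and at 0.0158% and 0.0165% and then 0.0190% and 0.0170% in Sst. These shares were far above those in L5IT, so the markers cannot tell RNA from L2/3 from RNA made in Pvalb and Sst. The part of L2/3 RNA was not tested.

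Gpc3 and Gpc4 also changed in excitatory neurons. Gpc3 in L2/3 rose from 1.94 and 1.65 CPM in the NR GR-Con male and female to 10.9 and 5.39 CPM in the DR GR-Con male and female (a change of 2.14 on the log2 scale, SE 0.39, adjusted p 2.7e-06, 0.0538 by the quasi-likelihood test), and the call held whichever library was left out. Gpc3 was further called in L4 (2.52, SE 0.73) and L6IT (1.90, SE 0.47), and Gpc4 in L5IT (1.27, SE 0.42), each of which lost its call in at least 2 leave-one-out fits. Hs6st3 was the only member called lower in an excitatory type here. It went from 3599 and 4348 CPM to 2634 and 2504 CPM in L2/3 (-0.68, SE 0.18, adjusted p 0.00497) and from 3778 and 3696 CPM to 2857 and 2569 CPM in L5PT (-0.47, SE 0.15, adjusted p 0.0452). The part of RNA from L4, the type with the most Hs6st3, was not tested. The call in L2/3 was kept in 2 of 4 leave-one-out fits and that in L5PT in 1 of 4. In oligodendrocytes Hs6st3 rose (0.96, SE 0.24, adjusted p 0.0157, and 0.9999 without the NR GR-Con female), with neuron markers at 0.0501% and 0.0459% of UMIs in NR GR-Con and 0.0523% and 0.0839% in DR GR-Con.

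Within GR-KO, DR against NR called 16 of 128 member pairs (12.5%), against 3.66% of all 224158 pairs. Of these 10 were higher and 6 lower, over a background of 1.69% and 1.96%. The quasi-likelihood F-test called 5 of them, against 0.857% of all pairs, and DESeq2 called 12 member pairs. Gpc1 in L6CT rose from 11.9 and 8.84 CPM in the NR GR-KO male and female to 24.8 and 21.5 CPM in the DR GR-KO male and female (a change of 1.18 on the log2 scale, SE 0.20, adjusted p 1.1e-06, 0.0548 by the quasi-likelihood test). Gpc4 in L6IT fell from 14.2 and 11.4 CPM to 5.38 and 4.71 CPM (-1.32, SE 0.22, adjusted p 7.0e-07, 0.0502 by the quasi-likelihood test). Both calls held whichever library was left out.

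Gpc5 in Pvalb rose from 25.7 and 22.3 CPM in NR GR-KO to 40.6 and 51.6 CPM in DR GR-KO (a change of 0.97 on the log2 scale, SE 0.16, adjusted p 3.2e-06, 0.0234 by the quasi-likelihood test), the opposite direction to that within GR-Con. It was also called in Vip (0.88, SE 0.18), L6IT (-0.99, SE 0.20) and L6CT (-0.46, SE 0.16). Gpc6 in OPCs rose from 1130 and 1099 CPM to 1554 and 1528 CPM (0.51, SE 0.13, adjusted p 0.0119, 6.24e-05 by the quasi-likelihood test). Gpc6 was further called in oligodendrocytes (0.70, SE 0.21), L6IT (-0.79, SE 0.22) and L6CT (-0.46, SE 0.15). The L2/3 markers in L6CT stood at 1.64% and 1.38% of their L2/3 level in NR GR-KO and at 0.826% and 0.835% in DR GR-KO. In L6IT they stood at 2.86% and 4.38% and then at 2.56% and 2.26%. Their part was not tested. Of these 8 calls of Gpc5 and Gpc6, that of Gpc5 in Pvalb alone was kept in each of its 4 leave-one-out fits; Gpc6 in OPCs lost its call without the DR GR-KO male (adjusted p 0.228). Hs6st1 rose in L4 (0.73, SE 0.18) and L2/3 (0.53, SE 0.17), and Gpc1 in L2/3 (0.53, SE 0.17), all with adjusted p between 0.057 and 0.0625 by the quasi-likelihood test. Without the DR GR-KO male these 3 calls were lost, with adjusted p of 0.312, 0.602 and 0.487, and that of Gpc1 in L2/3 was kept in 0 of 4 leave-one-out fits.

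VLMC could be tested within GR-KO, with 20 and 47 nuclei in the NR and 53 and 65 in the DR libraries (male and female). Hs6st3 was at 974 and 3004 CPM in NR GR-KO and at 149 and 46.7 CPM in DR GR-KO (a change of -4.65 on the log2 scale, SE 0.74, adjusted p 1.6e-08, 0.00491 by the quasi-likelihood test). Gpc4 went from 11.1 and 2.79 CPM to 54.1 and 70.1 CPM (3.15, SE 0.61, adjusted p 5.0e-06, 0.0136 by the quasi-likelihood test) and Gpc3 from 33.2 and 58.5 CPM to 126 and 207 CPM (1.57, SE 0.43, adjusted p 0.00285, 0.032 by the quasi-likelihood test). The 10 neuron markers, all detected, fell as Hs6st3 did while Gpc4 and Gpc3 rose. They were at 1.03% and 1.40% of VLMC UMIs in NR GR-KO and 0.157% and 0.192% in DR GR-KO. The 8 astrocyte markers, of which 1 was at 0 in the NR GR-KO female, summed to 0.327% and 0.329% in NR GR-KO and to 0.618% and 0.671% in DR GR-KO. The 3 VLMC markers summed to 0.0163% and 0.0174% in NR GR-KO and to 0.0361% and 0.0240% in DR GR-KO. Gpc3 lost its call without the DR GR-KO female. It also lost it with equal numbers of nuclei (adjusted p 0.517 by the likelihood ratio test) and by DESeq2 (adjusted p 0.0786). Gpc4 had only 73 UMIs in VLMC over the 8 libraries. For Gpc4, DESeq2 gave no adjusted p, and there was no result with equal numbers of nuclei. The part of neuronal and astrocyte RNA in these differences was not tested.

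Over both rearings, GR-KO against GR-Con called 0 of 115 member pairs with the likelihood ratio test, 0 with the F-test and 0 with DESeq2, and 15 pairs had an unadjusted p under 0.05. The background was 0.392% of 207556 pairs, with 0.173% higher and 0.219% lower, and 0.205% by the quasi-likelihood F-test. In astrocytes, where the Cre vector acts, no member was called in this fit. Gpc4 in astrocytes had 29.4 to 43.2 CPM in the 4 GR-Con and 34.6 to 36.3 CPM in the 4 GR-KO libraries, and Gpc6 had 1159 to 1461 CPM and 1496 to 1771 CPM.

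DR against NR over both genotypes called 9 of 115 member pairs (7.83%), against a background of 5.47%, which is close; 8 were higher and 1 lower, over 2.72% and 2.75%. Here the quasi-likelihood F-test called 8 of the 9 pairs, against 3.57% of all pairs, and DESeq2 called 10 member pairs. In 5 pairs the call held whichever library was left out. Gpc1 in L6CT was at 8.84 to 11.9 CPM in the 4 NR and 12.9 to 24.8 CPM in the 4 DR libraries (a change of 0.87 on the log2 scale, SE 0.17, adjusted p 1.2e-05, 0.014 by the quasi-likelihood test). Hs6st1 in L4 was at 11.9 to 15 CPM in NR and 18.1 to 22.3 CPM in DR (0.60, SE 0.12, adjusted p 2.6e-05, 0.013 by the quasi-likelihood test). Gpc5 in Lamp5 was at 34.9 to 71.7 CPM in NR and 6.82 to 31.1 CPM in DR (-1.79, SE 0.35, adjusted p 0.000142, 0.018 by the quasi-likelihood test). In these 3 cases no NR library overlapped the DR libraries. Gpc6 in oligodendrocytes (0.67, SE 0.16) and Gpc3 in L6IT (1.45, SE 0.32), the latter at 1.39 CPM or less in every library, were the others. The remaining calls were Gpc6 and Hs6st3 in OPCs (0.37, SE 0.11 and 0.38, SE 0.11) and Gpc1 and Gpc3 in L2/3 (0.38, SE 0.11 and 1.55, SE 0.48), and the last was the pair that the quasi-likelihood test did not call (adjusted p 0.0645).

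**Figure D5:**
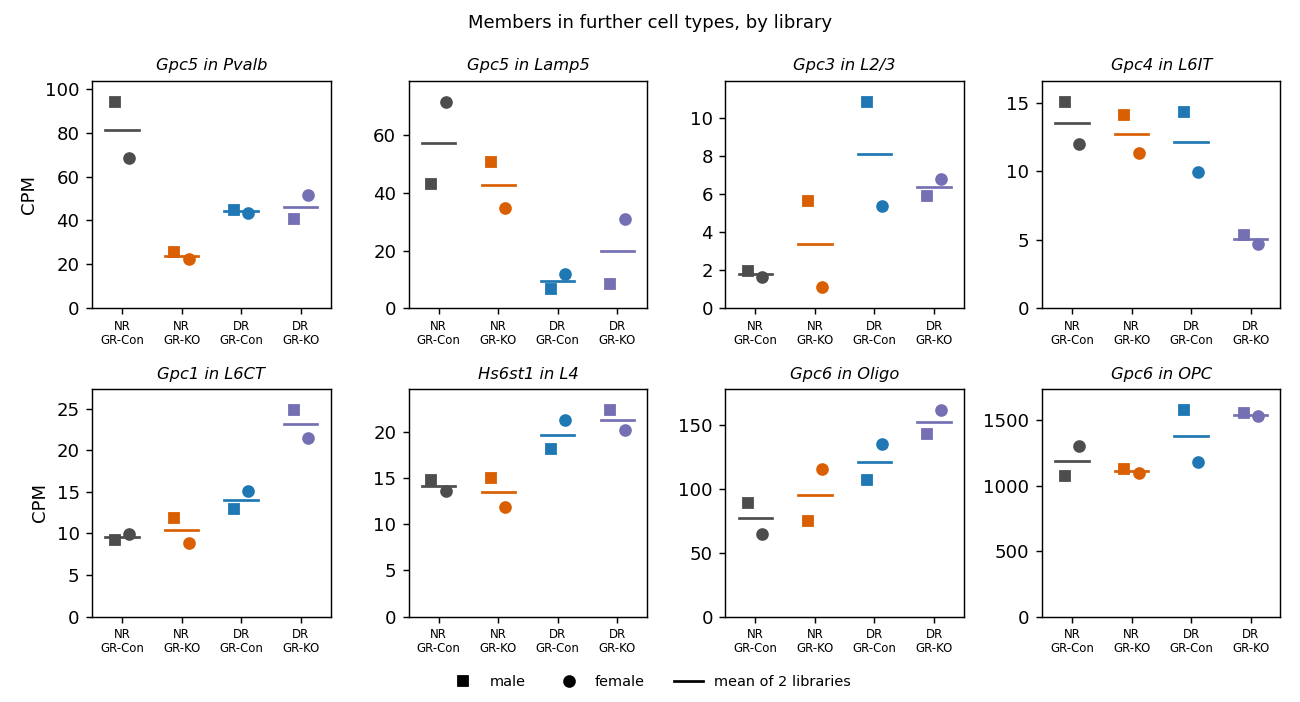
CPM of members in further cell types, each point 1 library (squares male, circles female) and each line the mean of 2 libraries of a group, with axes from 0. Gpc5 in Pvalb was highest in NR GR-Con (68.6 and 94.2 CPM) and lowest in NR GR-KO (22.3 and 25.7 CPM), and Gpc4 in L6IT was lowest in DR GR-KO (4.71 and 5.38 CPM).

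Whether the genotype difference itself changed with rearing was tested as an interaction, the difference in NR minus that in DR, over all 8 libraries. Of 115 member pairs 7 (6.09%) were called, against 0.181% of 217689 pairs; 6 were higher and 1 lower, over 0.139% and 0.0423%. The quasi-likelihood F-test called 1 of them, against 0.00276% of all pairs, and DESeq2 5. Gpc5 in Pvalb was the pair called by both (a change of -1.85 on the log2 scale, SE 0.25, adjusted p 9.1e-10, 0.0381 by the quasi-likelihood test): GR-KO was lower by 1.77 in NR, while in DR the libraries were at 45.0 and 43.2 CPM in GR-Con and 40.6 and 51.6 CPM in GR-KO. Gpc6 in L6IT (2.66, SE 0.40), Gpc5 in L5IT (2.89, SE 0.53) and Gpc5 in Pvalb were called in each of the 8 leave-one-out fits. Gpc5 in L6IT (3.0, SE 0.58) and Gpc6 in L6CT (1.66, SE 0.29) were called in 7 of 8, Hs6st3 in oligodendrocytes (2.02, SE 0.50) in 3 and Hs6st2 in astrocytes (2.01, SE 0.51) in 2.

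The rest of the heparan sulfate pathway was followed with 6 lists of 52 genes: other core proteins, chain synthesis, chain modification, sulfate donor supply, removal of sulfate or release of glypicans, and glypican partners. Of these, 50 genes were tested in at least 1 type. In NR, GR-KO against GR-Con called 21 of 694 pairs (3.03%, beside 0.804% of all pairs; 17 higher, 4 lower), 12 by the quasi-likelihood test. In DR it called 8 of 621 (1.29%, beside 0.513%; 5 higher, 3 lower), 1 by the quasi-likelihood test. DR against NR called 25 of 634 pairs in GR-Con (3.94%, beside 2.25%; 18 higher, 7 lower), 10 by the quasi-likelihood test, and 61 of 701 in GR-KO (8.70%, beside 3.66%; 35 higher, 26 lower), 22 by the quasi-likelihood test. Over both genotypes it called 47 of 624 (7.53%; 37 higher, 10 lower), which is close to the 5.47% of all pairs, and 30 by the quasi-likelihood test. Genotype over both rearings gave 7 of 624 (1.12%, beside 0.392%; 3 higher, 4 lower) and the interaction 2 of 637 (0.314%, beside 0.181%; both higher). Among chain modification enzymes 6.06% of 165 pairs were called for genotype in NR, 1.38% of 145 in DR, 6.85% of 146 for rearing in GR-Con and 12.5% of 168 in GR-KO. Among glypican partners, which include the receptor phosphatases Ptprs and Ptprd and the synaptic proteins Lrrtm3 and Lrrtm4, these shares were 4.02% of 174, 1.91% of 157, 5.73% of 157 and 12.7% of 181 pairs. In the same order, chain synthesis had 0% of 169, 0% of 156, 1.90% of 158 and 4.71% of 170. Core proteins had 1.49% of 67, 3.45% of 58, 3.125% of 64 and 5.88% of 68. Sulfate donor supply had 1.67% of 60, 0% of 54, 0% of 57 and 0% of 58. Removal or release had 3.39% of 59, 1.96% of 51, 1.92% of 52 and 8.93% of 56.

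The named pathway genes in astrocytes included a core protein and 2 partners. Sdc4, a syndecan that carries heparan sulfate at the surface of astrocytes, was at 143 and 130 CPM in the NR GR-Con male and female and at 65.0 and 69.3 CPM in the NR GR-KO male and female (log2 fold change -1.09, SE 0.14). It was also lower in DR, at 109 and 118 CPM against 64.2 and 68.2 CPM (-0.75, SE 0.20, not called by the quasi-likelihood test), and over both rearings (-0.92, SE 0.12). Unc5c, a netrin receptor, was at 145 to 191 CPM in the 4 GR-Con and 274 to 333 CPM in the 4 GR-KO libraries (0.81, SE 0.11). Over both rearings Gdpd5 was called higher (0.62, SE 0.20) and Hs3st3a1 lower (-0.79, SE 0.23), neither called by the quasi-likelihood test. Lrrtm4, a postsynaptic receptor of glypicans, was higher in NR GR-KO astrocytes (1.20, SE 0.22), with the neuron markers raised in the same libraries as given above; Hs3st4, a neuronal 3-O-sulfotransferase, was higher in oligodendrocytes (1.78, SE 0.24) under the same condition.

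In neurons Sulf1, an enzyme that takes 6-O-sulfate off finished chains at the cell surface and so acts opposite to the Hs6st enzymes, was lower in DR in L2/3. It was at 17.1 and 15.9 CPM in NR GR-Con, 21.1 and 18.9 CPM in NR GR-KO, 6.84 and 7.37 CPM in DR GR-Con and 7.06 and 9.59 CPM in DR GR-KO. No DR library reached the lowest NR library (log2 fold change over both genotypes -1.24, SE 0.12, adjusted p 8.75e-20, 0.00221 by the quasi-likelihood test). Hs3st2, a neuronal 3-O-sulfotransferase, was higher in DR in the same cells (1.27, SE 0.33). In Lamp5 interneurons Unc5b was higher in DR (1.13, SE 0.26), and in Pvalb Hs3st4 was lower (-1.68, SE 0.42, not called by the quasi-likelihood test), at 26.3 to 99.7 CPM in NR and 11 to 34.9 CPM in DR.

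In DR, Unc5a and Nptx1 in L5IT were higher in GR-KO (0.71, SE 0.14 and 0.68, SE 0.18, neither called by the quasi-likelihood test) and Ndst4, an N-deacetylase and N-sulfotransferase, was lower in Sst (-1.06, SE 0.16). In VLMC within GR-KO, the changes from NR to DR of Ptprd (-3.32, SE 0.61), Unc5d (-3.85, SE 0.62) and Hs3st3a1 (1.51, SE 0.42) came with the neuron marker shares given above. Endothelial Hs3st4 was called lower in GR-KO in NR (-1.76, SE 0.37) and higher in DR within GR-KO (2.00, SE 0.48), at levels of 63.8 to 702 CPM over the 8 libraries, and neither call was made by the quasi-likelihood test.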

How the data were processed

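Single-nucleus RNA-seq of mouse V1 was deposited by the authors as 1 matrix of raw UMI counts per gene and nucleus, with a table that gives each nucleus a library, a sex and a cell type. Per the submitters' processing notes, Cell Ranger 8.0.1, Seurat 5.3.0 and the mm10 genome were used. According to the methods, doublets were removed with DoubletFinder, clusters without markers were dropped, and the cell types were named by the authors from marker genes after clustering all libraries together. The library names give rearing, vector and sex, and all columns of per-sample values were mapped to a group.

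UMI counts were summed per library and cell type. Differences were modelled in edgeR (version 4.0.16, under R 4.3.3) with filterByExpr, TMM, estimateDisp and glmFit. The likelihood ratio test is the one named in the methods of the study. Fits were over all features of each cell type with at least 10 nuclei in every library of the fit. Benjamini-Hochberg adjustment was within the cell type, and calls were at an adjusted p under 0.05. SE was taken as the size of the log2 fold change over the root of its likelihood ratio statistic. The quasi-likelihood F-test of edgeR and DESeq2 1.42.0 were alternatives, as were RLE size factors, no filter, sex as a term, equal numbers of nuclei, all 8 libraries in 1 fit and leaving out each library; the scripts were tested on simulated data. Each group had 2 libraries from 1 male and 1 female, so p-values rest on the spread between 2 animals of different sex. Shares of nuclei cover counting only.

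The members and the gene lists were chosen with earlier results of these data known. All 9 members are reported, and pathway genes are named as at most 2 pairs of gene and cell type per direction and comparison, those with the largest log2 fold change among called pairs whose mean log2 CPM reached 3. Gene positions are from GENCODE vM21 (GRCm38). Promoter sequences are from RefSeq (GRCm38.p6), in which 7 of the 9 members had an entry.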

Additional observations from a re-analysis of the deposited data

Results flagged for a closer look

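In 7 pairs of member and cell type the genotype difference in NR differed from that in DR by the interaction test (edgeR likelihood ratio test over all 8 libraries, adjusted p under 0.05); values are log2 differences, NR minus DR. They were 2.01 for Hs6st2 in astrocytes, 2.89 for Gpc5 in L5IT, 1.66 for Gpc6 in L6CT, 3.0 for Gpc5 in L6IT, 2.66 for Gpc6 in L6IT, 2.02 for Hs6st3 in oligodendrocytes and -1.85 for Gpc5 in Pvalb. By the quasi-likelihood F-test 1 of the 7, Gpc5 in Pvalb, passed (adjusted p 0.0381), and the adjusted p of the other 6 lay between 0.337 and 0.906. The group mean of the NR GR-Con libraries was the lowest of the 4 groups for Gpc5 in L5IT and L6IT and for Gpc6 in L6IT and L6CT, and the highest for Gpc5 in Pvalb.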

How the results depend on the processing

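No paired analysis was possible because libraries in the deposited table of nuclei carry no replicate number; a fit that matches the libraries of the groups by sex, which are different animals, is given as sex as a term. No direction reversed under any alternative run. Counts of calls are over all member pairs tested. Shares of all pairs are given for the likelihood ratio test and the F-test alone, so the other counts do not show an excess. For genotype in NR (12 called) the quasi-likelihood F-test called 2, DESeq2 7, a fit with sex as a term 20 and a fit of all 8 libraries 7; 6 of the 12 were called by DESeq2 and 6 in the fit of all 8. For genotype in DR (3 called) the F-test called 0 and sex as a term gave 11. For rearing in GR-Con (18 called) the F-test called 4. For rearing in GR-KO (16 called) the F-test called 5 and the fit of all 8 libraries 7. For genotype over both rearings equal numbers of nuclei gave 1 call in place of 0. For the interaction (7 called) the F-test called 1 and sex as a term gave 16. Leaving out 1 library gave 8 to 23 calls for genotype in NR, 0 to 16 for genotype in DR, 7 to 31 for rearing in GR-Con, 7 to 34 for rearing in GR-KO, 0 to 2 for genotype over both rearings, 7 to 21 for rearing over both genotypes and 4 to 14 for the interaction. The cause of these changes was not tested. Of the 65 called pairs, 45 missed the threshold by the F-test, 17 by DESeq2 (which gave 5 no adjusted p), 2 with RLE size factors, 5 without the filter and 10 with equal numbers of nuclei. In the fit of all 8 libraries 17 missed it, and 19 had no such fit. With sex as a term 0 missed it. In fits of 4 libraries that term leaves 1 residual degree of freedom. It gave more calls for genotype in NR and in DR, so a kept call says little. Within the 15 tested types the highest type of each of the 9 genes stayed in the 4 GR-Con libraries alone and with nuclei weighted equally; over all 20 types with nuclei weighted equally Gpc4 was higher in VLMC (41.2 CPM) than in astrocytes (35.8 CPM). As in the main test, 22 neighbouring pairs differed at a pseudocount of 0.1; the neighbour test was not run on the GR-Con libraries alone, where 4 libraries are too few to reach the threshold.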
